A study of Homo sapiens with 22 samples.

Results

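The transcriptomes of 2 mutant HT1080 cell lines were compared with each other, without wild-type libraries in the comparison. HT1080 is a human fibrosarcoma cell line. In HT1080 KDAC8H143A the active-site histidine of the lysine deacetylase KDAC8 was replaced by alanine at the endogenous HDAC8 gene, and in HT1080 KDAC6H611A the same was done in the second catalytic domain of KDAC6, at the endogenous HDAC6 gene. The members were 8 of the 22 libraries of the series, 4 of KDAC8H143A and 4 of KDAC6H611A, taken by the genotype in their labels. The cells of both lines were untreated. Both were made with CRISPR/Cas9 and a repair template and grown from single colonies, so each mutation is seen in 1 clone and its effect cannot be told apart from whatever else that clone carries. The KDAC8H143A line also has 1 extra base in the intron beside the edited exon. The methods of the study call the 4 libraries of a line biological replicates, and neither they nor the labels say whether these were separate cultures, so the p-values measure the spread between these libraries. Levels in the 4 libraries of unedited (WT) cells are given below as a description, with no test. Throughout, "higher" and "lower" refer to KDAC8H143A relative to KDAC6H611A.

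Lysine deacetylases remove acetyl groups from lysine side chains, on histones and on many other proteins. KDAC6 is mostly cytoplasmic and is known for deacetylating α-tubulin, the actin-binding protein cortactin and the chaperone HSP90, and it also takes part in carrying misfolded proteins to the aggresome. KDAC8 deacetylates SMC3, a subunit of the cohesin ring that holds sister chromatids together, and proteins such as the chromatin remodelling subunit ARID1A have been put forward as further substrates.

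The edited codons are shown because they hold the amino acid changes that separate the lines by design. The repair templates of the study also carried silent changes for screening beside these codons, which are not marked here. Each window below is the reference sequence of GRCh38, read along the coding strand, with the edited histidine codon in capitals and 24 bases on either side. The HDAC6 codon lies on the plus strand at chrX:48817365-48817367, in exon 20 of 29, and its window of 51 bases is entirely exonic. The HDAC8 codon lies on the minus strand at chrX:72567897-72567899, in exon 4 of 11, and 35 of the 51 bases are exonic, the rest being the start of the following intron.
HDAC6, H611A: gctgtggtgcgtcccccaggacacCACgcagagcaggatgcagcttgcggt
HDAC8, H143A: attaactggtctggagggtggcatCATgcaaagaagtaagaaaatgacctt

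Neither edited gene differed detectably in RNA level between the lines. HDAC6 stood at 15.7, 13.3, 15.9 and 17.5 CPM (read counts scaled to normalised library sizes) in KDAC8H143A replicates 1 to 4 and at 13.8, 12.4, 10.5 and 16.0 CPM in KDAC6H611A. The lines overlapped and differed by 0.27 on the log2 scale, which did not pass the test (SE 0.18, adjusted p = 0.195; GC-corrected -0.27). HDAC8 stood at 12, 14.7, 12.1 and 11.4 CPM in KDAC8H143A and at 11.7, 15.5, 12.4 and 10.4 CPM in KDAC6H611A. The log2 fold change of HDAC8 was 0.04 (SE 0.18, adjusted p = 0.846), and WT cells had 14.2 ± 3.28 CPM of HDAC6 and 12.8 ± 0.816 CPM of HDAC8 (SD, n = 4). A changed codon does not remove a transcript, so these levels do not check the genotype.

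The libraries held 7324519 to 12752463 counts in KDAC6H611A and 11010719 to 17170473 in KDAC8H143A, so that 3 counts, taken here as the floor in a library, corresponded to 0.272 to 0.504 CPM and 0.145 to 0.250 CPM. The first principal component held 76.4% of the variance and separated the lines. Mitochondrial rRNA took 24.5%, 38.0%, 21.0% and 0.173% of the counts in KDAC6H611A replicates 1 to 4 and at most 0.0259% in KDAC8H143A. KDAC6H611A replicate 2 stood apart on the second component (8.60% of the variance). Of the mesenchymal markers VIM, FN1 and 14 others, 13 of 16 reached 1 CPM in each line, and the list summed to 4427 to 5773 CPM in KDAC8H143A and 4919 to 7868 CPM in KDAC6H611A. Epithelial markers summed to 375 to 490 and 214 to 394 CPM, endothelial ones to 152 to 186 and 141 to 209 CPM, haematopoietic ones to 19.8 to 31.1 and 64.5 to 107 CPM, and neural ones to 70.6 to 94.2 and 88.5 to 152 CPM. KRT14, EMCN and CD3E had no counts in any of the 8 libraries, and the part of these other markers in the results below was not tested.

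Between these lines 7519 of 16624 genes tested were called at an adjusted p below 0.01, which is 45.2%. Of these, 4046 were higher (24.3% of the genes tested) and 3473 lower (20.9%). Among protein-coding genes the shares were 23.2% higher and 24.3% lower, of 12925 tested. For 50.6% of all genes tested the 4 values of one line lay wholly above or below those of the other. The median log2 fold change over all genes was 0.03. Scaling to the total count alone moved it to 0.30, and the share of calls that were higher then went from 53.8% to 74.3%, so directions of gene groups below are relative to TMM scaling and exceptions are named.

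The fold changes followed the GC content of the genes. Genes were split by GC content into 5 groups of equal size. In the group with the lowest GC content (median 38.7%) the median log2 fold change was -0.63 and 42.2% of the genes were lower. In the group with the highest (median 60.9%) it was 0.88 and 52.4% were higher. The difference in mean log2(CPM + 1) between these groups was 0.67, 0.03, 0.74 and 1.07 in KDAC8H143A replicates 1 to 4, -0.69, -0.65, -0.81 and -0.39 in KDAC6H611A, and between -0.98 and -0.79 in WT cells. All 4 KDAC8H143A libraries thus lay above all 8 others, and KDAC8H143A replicate 2 lay nearest to them. An offset fitted smoothly to GC content and length left 6017 of 16458 genes called (2942 or 17.9% higher, 3075 or 18.7% lower), and 4466 of them were also called without it. Counts and fold changes under this correction, called GC-corrected below, stand beside the gene groups. Counts of gene groups are to be read against the shares of all genes tested. These were 24.3% higher and 20.9% lower, or 17.9% and 18.7% GC-corrected, or 28.9% and 10.0% under total-count scaling.

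**Figure D1:**
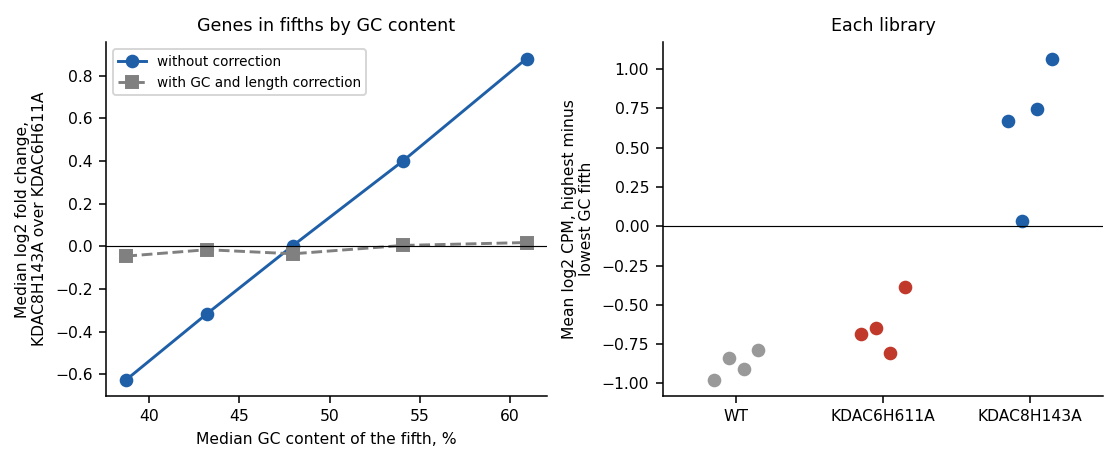
Left, median log2 fold change of KDAC8H143A over KDAC6H611A (y axis) against the median GC content in percent (x axis) of 5 groups of genes split by it, without correction (circles) and with the GC and length correction (squares); it climbs from -0.63 to 0.88 and lies between -0.05 and 0.02 after correction. Right, mean log2(CPM + 1) of the highest minus the lowest GC group, 1 point per library; the KDAC8H143A points lie between 0.03 and 1.07, above all WT and KDAC6H611A points.

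A set of genes was expressed in one line and silent or nearly so in the other. Among protein-coding genes outside the Y chromosome, 102 had a mean of at least 1 CPM in KDAC8H143A and at most 3 counts in every KDAC6H611A library, and 73 showed the reverse. They came from 5369 and 4717 genes with at most 3 counts in every library of the other line. As 3 counts stood for more CPM in KDAC6H611A (0.272 to 0.504) than in KDAC8H143A (0.145 to 0.250), the 102 and the 73 are not like for like. The filter on low counts left 68 of the 102 and 49 of the 73 in the test. All of these were called, which is no support for them, since they passed the filter only through the line that expressed them. WT cells had less than 1 CPM of 84 of the 102 and of 53 of the 73.

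Several genes expressed in WT and KDAC8H143A cells had far less RNA, or none, in KDAC6H611A. EPB41L3, a protein 4.1 family member that links membrane proteins to the actin and spectrin cytoskeleton, stood at 164, 130, 148 and 180 CPM in KDAC8H143A and had 0 counts in all 4 KDAC6H611A libraries. It was therefore at least 308-fold higher (adjusted p = 2.41e-08), and WT cells had 186 ± 8.31 CPM. The gene lies at chr18:5392381-5630700 on the minus strand. FLNC, which encodes the actin crosslinker filamin C (chr7:128830406-128859274, plus strand), stood at 136, 128, 165 and 147 CPM against 0, 0.168, 0.362 and 0.349 CPM. It differed by 9.20 on the log2 scale (SE 0.30, adjusted p = 2.04e-09), and WT cells had 153 ± 9.80 CPM. MYH10, the heavy chain of non-muscle myosin IIB, had 120, 95.8, 133 and 133 CPM against 6.33, 6.38, 6.43 and 5.71 CPM (log2 fold change 4.31, SE 0.17, adjusted p = 7.95e-09), with 79.7 ± 7.25 CPM in WT cells. The same pattern at lower levels was seen for SERPINB5, which encodes the serpin maspin (6.59, 11.7, 6.26 and 6.61 CPM against 0 counts, at least 15.5-fold higher, adjusted p = 8.3e-06), and for PLXDC2, a plexin domain protein (5.99 ± 0.462 against 0.0420 ± 0.0840 CPM, adjusted p = 1.84e-06). WT cells expressed SERPINB5 at 16.8 ± 0.781 CPM and PLXDC2 at 6.91 ± 0.738 CPM.

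Other genes were high in KDAC8H143A alone. CD300E, a receptor of myeloid cells, had 36.6, 27.5, 62.9 and 201 CPM in KDAC8H143A, at most 0.233 CPM in KDAC6H611A and 0 counts in WT cells (log2 fold change 9.70, SE 0.98, adjusted p = 1.05e-05). GABRA2, a subunit of the GABA-A receptor, had 64.3, 38.2, 99.0 and 376 CPM, at most 0.362 CPM in KDAC6H611A and 2.91 ± 0.575 CPM in WT cells (log2 fold change 9.20, SE 0.94, adjusted p = 1.17e-05). Both were highest in replicate 4 and lowest in replicate 2 of KDAC8H143A, and the lines were far from overlapping. TRPM2, a calcium-permeable channel, had 17.4, 12.2, 17.9 and 15.4 CPM against 0.335 ± 0.175 CPM (log2 fold change 5.67, SE 0.35, adjusted p = 2.68e-07), and 1.45 ± 0.392 CPM in WT cells. The neurexin family member CNTNAP4 (7.43 ± 1.88 CPM) and the platelet glycoprotein gene GP1BB (5.78 ± 3.34 CPM) had 0 counts in KDAC6H611A, which puts them at least 14.8-fold and 11.5-fold higher (adjusted p = 6.8e-06 and 8.05e-05). KPRP (13.5 ± 3.05 CPM), the ring-finger gene RNF225 (6.07 ± 4.22 CPM), the homeobox gene PKNOX2 (7.54 ± 9.14 CPM), the hairless gene HR (7.85 ± 1.63 CPM) and PRDM1, a transcriptional repressor of lymphoid differentiation (8.60 ± 1.35 CPM), each averaged at most 0.309 CPM in KDAC6H611A. Of these 5, PRDM1 had 3.04 ± 0.0444 CPM in WT cells, KPRP 1.47 ± 0.533 CPM and the others below 1 CPM.

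In the other direction, genes high in KDAC6H611A had next to no RNA in KDAC8H143A. THBS2, which encodes the anti-angiogenic matrix glycoprotein thrombospondin 2 (chr6:169215780-169254050, minus strand), had 0.0834, 0, 0.0712 and 0.0817 CPM in KDAC8H143A, that is 1 count or none per library. In KDAC6H611A it had 94.2, 64.0, 113 and 98.7 CPM and in WT cells 92.4 ± 7.87 CPM. It differed by -10.51 on the log2 scale (SE 0.35, adjusted p = 2.04e-09), and the ratio of summed counts was 1887 with a counting interval of 645 to 9157. ADGRL4, an adhesion G protein-coupled receptor known from endothelium (chr1:78889764-79282124, minus strand), had 0.250, 0, 0 and 0 CPM against 48.5, 33.8, 64.9 and 40.9 CPM (log2 fold change -9.54, SE 0.48, adjusted p = 5.96e-08), and WT cells had 55.1 ± 5.88 CPM. For these genes KDAC6H611A was near WT and KDAC8H143A was the line without RNA.

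PAGE2 was different, being high in KDAC6H611A alone. This X-linked gene of a cancer-testis antigen family (chrX:55089018-55092842, plus strand) had 0 counts in all KDAC8H143A libraries and 38.0, 24, 43.7 and 40.8 CPM in KDAC6H611A. It was at least 146-fold lower (adjusted p = 2.13e-07), and WT cells had 0.666 ± 0.458 CPM. MARCKS, a membrane-bound substrate of protein kinase C, likewise had 0 counts against 9.95 ± 2.53 CPM (at least 39.8-fold lower, adjusted p = 1.91e-06), and 0.203 ± 0.186 CPM in WT cells. The synaptic adhesion gene SLITRK4 (9.5 ± 2.70 CPM, at least 37.9-fold) and the nuclear protein gene AFF2 (5.46 ± 0.685 CPM, at least 21.8-fold), both on the X chromosome, had 0 counts in KDAC8H143A and averaged 0.0674 and 0.385 CPM in WT cells. TPTE, a phosphatase-related gene of the testis, averaged 14.5 ± 6.92 CPM against 0.0719 ± 0.0830 CPM (adjusted p = 2.35e-06). B3GALNT1, a glycosyltransferase, had 0 counts against 5.80 ± 1.08 CPM (at least 23.2-fold lower, adjusted p = 4.15e-06) and 2.02 ± 0.801 CPM in WT cells.

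**Figure D2:**
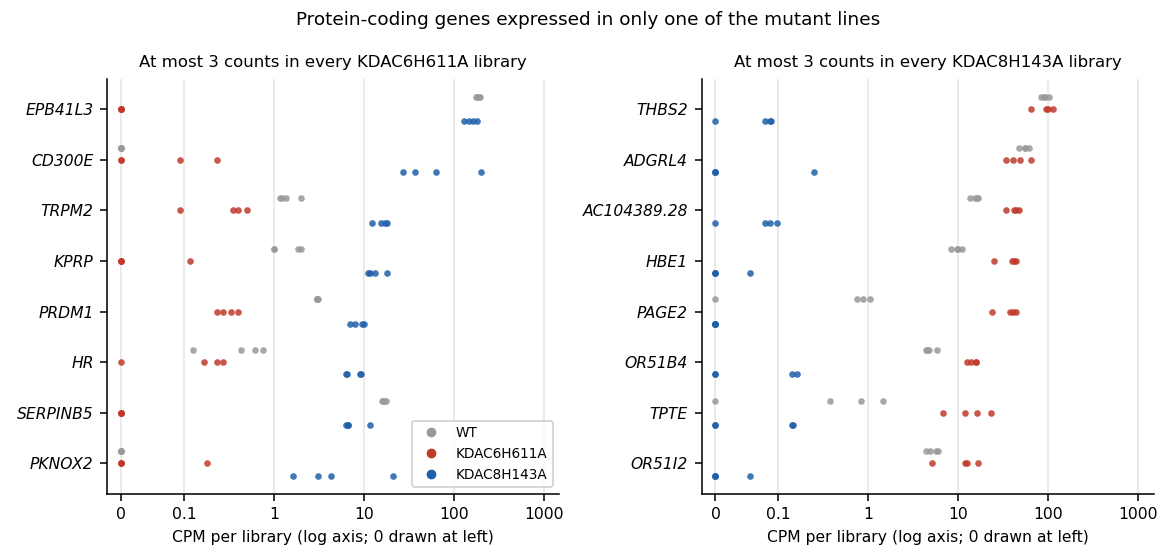
CPM in each library (log axis, libraries with 0 counts drawn at the left edge) of the 8 protein-coding genes in each direction with the highest level in one mutant line and at most 3 counts in every library of the other; grey WT, red KDAC6H611A, blue KDAC8H143A, 4 points each. EPB41L3 and SERPINB5 on the left and THBS2 and ADGRL4 on the right have WT points beside those of the line that expresses them.

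The sequence before the start site is shown for FLNC, THBS2 and PAGE2, which were high in one line and had at most 4, 1 and 0 counts in any library of the other. With its 4 counts in KDAC6H611A replicate 3, FLNC was not among the 102 genes. The capitals mark the dinucleotide CG, read on the gene's own strand, in the 250 bases upstream of the RefSeq start (RefSeq, GRCh38.p14). They lie at chr7:128830156-128830405 (plus strand), chr6:169253847-169254096 (minus strand) and chrX:55088768-55089017 (plus strand). The RefSeq start of THBS2 lies inside the GENCODE limits given above, so part of its stretch falls within the gene as placed there.
FLNC: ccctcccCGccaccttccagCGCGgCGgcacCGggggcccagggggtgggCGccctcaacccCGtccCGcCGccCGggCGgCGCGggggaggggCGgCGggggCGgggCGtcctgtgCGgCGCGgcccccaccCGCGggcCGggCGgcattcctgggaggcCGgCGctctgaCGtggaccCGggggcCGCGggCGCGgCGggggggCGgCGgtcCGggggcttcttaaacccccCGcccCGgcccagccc
THBS2: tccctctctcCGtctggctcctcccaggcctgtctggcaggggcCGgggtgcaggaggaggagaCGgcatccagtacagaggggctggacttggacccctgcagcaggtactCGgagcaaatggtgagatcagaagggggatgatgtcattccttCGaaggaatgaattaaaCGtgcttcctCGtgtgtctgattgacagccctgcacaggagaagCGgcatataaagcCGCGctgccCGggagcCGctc
PAGE2: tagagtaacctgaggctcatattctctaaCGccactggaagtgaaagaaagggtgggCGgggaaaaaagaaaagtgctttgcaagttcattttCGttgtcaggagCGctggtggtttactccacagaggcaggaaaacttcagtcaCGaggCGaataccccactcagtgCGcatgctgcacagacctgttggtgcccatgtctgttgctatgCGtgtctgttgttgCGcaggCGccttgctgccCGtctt
FLNC has 38 CG dinucleotides in this stretch, THBS2 12 and PAGE2 11. Over all protein-coding genes tested with a RefSeq promoter in the table (7395 of 12925), the median was 22, and 87.2% had 10 or more. Genes of the 102 expressed in KDAC8H143A alone had a median of 13 (52 with a promoter, 67.3% with 10 or more), and those of the 73 expressed in KDAC6H611A alone a median of 14 (43 with a promoter, 67.4% with 10 or more). CG-poor starts were thus more frequent in both groups of genes than among the genes tested, as a description with no test. Both groups were picked for low counts in 1 line, and 34 of the 102 and 24 of the 73 were not among the genes tested. The part of this selection in the medians was not tested.

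A stretch of chromosome 11 around the β-globin genes was expressed in KDAC6H611A and nearly silent in KDAC8H143A. It was chosen after its values were seen. The stretch runs from HBG2 to OR52D1, chr11:5253188-5505652, and holds globin genes and olfactory receptor genes, which are normally kept silent in mesenchymal cells. All 18 of its genes with at least 10 counts in some library were called lower, 11 of them protein-coding, with log2 fold changes from -10.38 to -6.05 (20.9% of all genes tested were lower), but genes this low in KDAC8H143A entered the test only through KDAC6H611A. The 4 KDAC8H143A libraries had 47 counts over the 18 genes and the 4 KDAC6H611A libraries 6717. HBE1, the embryonic ε-globin gene, had 0, 0.0484, 0 and 0 CPM in KDAC8H143A and 39.7, 25, 43.7 and 42.0 CPM in KDAC6H611A (log2 fold change -10.38, SE 0.40, adjusted p = 7.95e-09). WT cells were in between, at 9.72 ± 1.18 CPM. AC104389.28, the name in the table for the gene annotated as OR51B5, had at most 0.0968 CPM against 42.1, 44.4, 47.4 and 34.0 CPM (log2 fold change -9.04, SE 0.31, adjusted p = 2.04e-09), and 15.5 ± 1.44 CPM in WT cells. Of the odorant receptor genes themselves, OR51B4 had 14.5 ± 1.64 CPM in KDAC6H611A, OR51I2 11.6 ± 4.85, OR51B2 10.3 ± 4.02 and OR51B6 7.19 ± 4.47 CPM, and no library of KDAC8H143A had more than 0.163 CPM of any of these 4.

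The flanking genes were expressed in both lines. As a description, all 18 genes had a higher mean in KDAC6H611A than in WT cells and a lower one in KDAC8H143A. On the near side TRIM68, the nearer gene, had 8.51, 7.75, 8.19 and 6.61 CPM in KDAC8H143A and 12.3, 11.6, 11.3 and 10.7 CPM in KDAC6H611A. It did not overlap and did not pass the test (log2 fold change -0.53, adjusted p = 0.0174), but passed it GC-corrected (-0.68, adjusted p = 0.00337). TRIM21, farther off, had 14.4, 13, 14 and 12 CPM in KDAC8H143A and 9.63, 11.3, 18 and 14.2 CPM in KDAC6H611A, and on the far side TRIM22 had 67.2, 57.0, 51.1 and 52.6 CPM and 51.7, 63.8, 57.1 and 51.1 CPM. TRIM21 and TRIM22 overlapped between the lines. In the annotation used here HBG2, HBE1 and OR51B5 have long transcripts that span most of the stretch, so reads of these overlapping genes cannot be told apart, nor assigned to a strand from these counts.

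**Figure D3:**
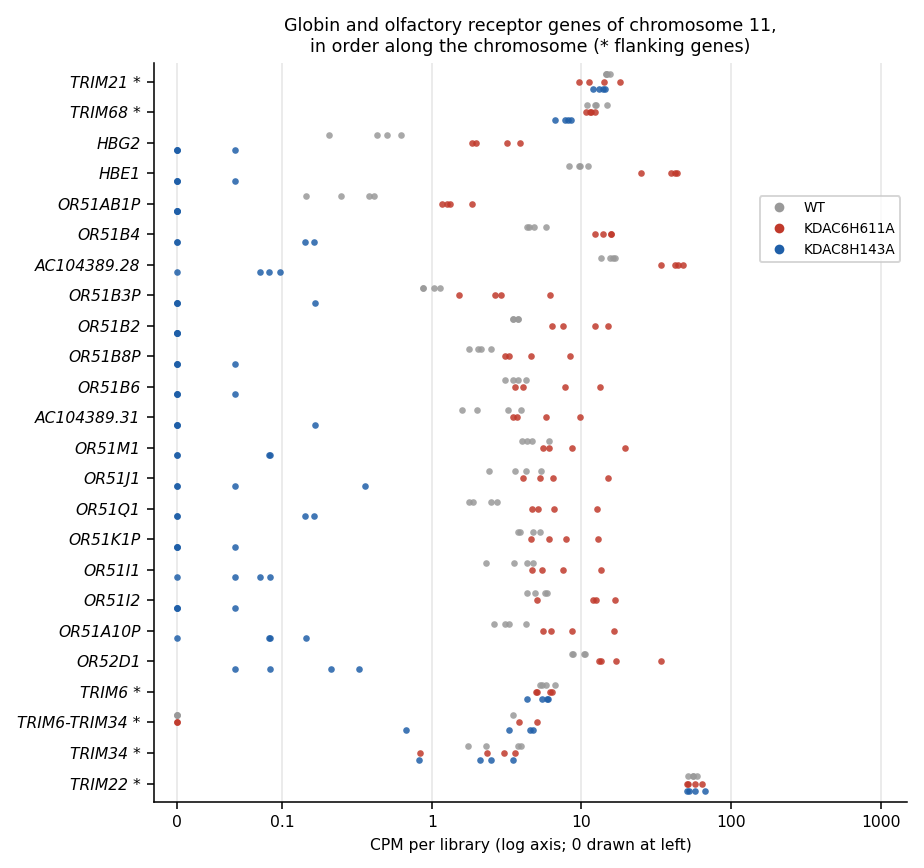
CPM in each library (log axis, libraries with 0 counts drawn at the left edge) of genes of chromosome 11 in their order along the chromosome, the flanking genes marked with an asterisk; grey WT, red KDAC6H611A, blue KDAC8H143A, 4 points each. From HBG2 to OR52D1 no KDAC8H143A point lies above 0.356 CPM and no KDAC6H611A point below 1.16 CPM, while the points of the flanking genes mix, except those of TRIM68, which are lower in KDAC8H143A without overlap.

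Over larger stretches the genes of chromosome 6 stood out. Protein-coding genes were put into windows of 10 Mb, and 227 windows had at least 20 genes tested. The 7 windows with the lowest medians were the 7 counted windows of chromosome 6 from 70 Mb on. Of the 282 genes there, 204 (72.3%) were lower and 6 (2.13%) higher, against 24.3% and 23.2% of all protein-coding genes. Their median log2 fold change was -1.25, or -0.84 GC-corrected and -0.98 under total-count scaling, and the medians of the windows ran from -1.50 to -1.10. Compared with WT means, as a description and without GC correction, the median log2 ratio was -1.29 in KDAC8H143A and -0.11 in KDAC6H611A. Up to 70 Mb the 389 genes of the same chromosome had a median of 0.07, with 82 higher and 73 lower. Of the genes named elsewhere in this text, THBS2, MARCKS, HDAC2, RPS12, PSMB1, COX7A2, TTK, COL12A1, ARID1B and PHF10, all lower, lie in the shifted stretch, and PRDM1, which was higher, does too.

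Chromosome 18 was shifted the other way. Of its 185 genes, 72 (38.9%) were higher and 18 (9.73%) lower, with a median of 0.50 (0.81 GC-corrected, 0.76 under total-count scaling). Here both lines were below WT, with median log2 ratios of -0.40 in KDAC8H143A and -0.81 in KDAC6H611A, without GC correction. The value in KDAC8H143A was not particular to chromosome 18, which had a median GC content of 43.6%. Chromosomes 4, 5 and 13 (42.0%, 43.8% and 41.9%) had ratios of -0.49, -0.34 and -0.37 in KDAC8H143A. In KDAC6H611A they had -0.09, -0.07 and -0.46. EPB41L3 and SERPINB5, named above as higher, lie on this chromosome. The shift was larger from 20 Mb on (139 genes, median 0.57) than up to 20 Mb (46 genes, median 0.15). Of 9 genes tested on the Y chromosome, which are not named here, 8 were lower, with a median of -5.06. The number of copies of these chromosomes in either line was not measured here, and its part in the shifts was not tested.

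**Figure D4:**
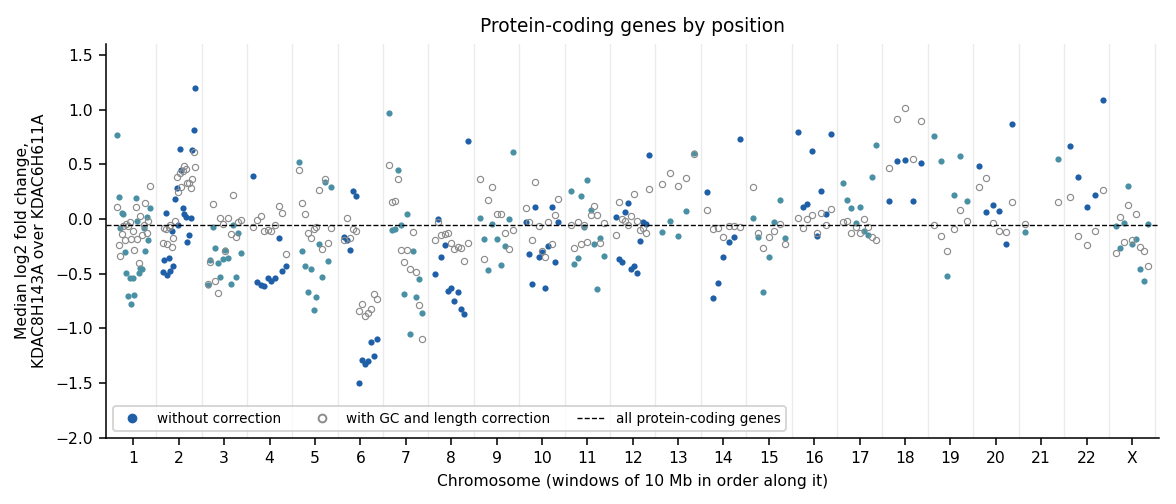
Median log2 fold change of KDAC8H143A over KDAC6H611A (y axis) of protein-coding genes in windows of 10 Mb with at least 20 genes, in order along each chromosome (x axis); filled points, uncorrected, in alternating shades by chromosome, open points, GC-corrected, dashed line, all protein-coding genes. The 7 windows at the right of chromosome 6 lie between -1.50 and -1.10.

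Among the genes of the acetylation machinery, more deacetylases were higher than lower. Of 17 deacetylases tested, 8 were higher and 2 lower (GC-corrected, 5 and 2). Among all genes tested 24.3% were higher and 20.9% lower (GC-corrected, 17.9% and 18.7%). HDAC10 had 124, 61.2, 93.5 and 179 CPM against 27.6, 47.2, 20.7 and 36.4 CPM (log2 fold change 1.83, SE 0.32, adjusted p = 0.000449, GC-corrected 0.73). HDAC7 had 179 ± 25.8 against 65.4 ± 7.14 CPM (1.49, SE 0.15, adjusted p = 1.25e-05, GC-corrected 0.69) and HDAC5 64.0 ± 10.1 against 25.8 ± 3.55 CPM (1.34, SE 0.16, adjusted p = 2.57e-05, GC-corrected 0.54). WT cells had 23.5, 67.8 and 28.8 CPM of these genes, near KDAC6H611A for HDAC7 and HDAC5. For HDAC10 the KDAC6H611A libraries ran from 20.7 to 47.2 CPM. The lower genes were HDAC11, the single class IV enzyme (1.58 ± 0.310 against 4.48 ± 0.564 CPM, log2 fold change -1.47, adjusted p = 0.000565), and HDAC2, a nuclear class I enzyme (35.7 ± 3.11 against 67.9 ± 11.3 CPM, -0.89, adjusted p = 0.000243, GC-corrected -0.37). Of 18 acetyltransferases, 7 were higher and 5 lower (GC-corrected, 4 and 5; under total-count scaling, 6 and 2), the lower ones being KAT2B, ESCO2, NCOA3, NCOA1 and HAT1. Without KDAC6H611A replicate 1 or KDAC8H143A replicate 4, 4 were higher, and without replicate 1 or 3 of either line 3 were lower. EP300, a transcriptional coactivator, had 134, 146, 132 and 134 CPM against 60.4, 53.3, 65.9 and 56.4 CPM and did not overlap (log2 fold change 1.24, SE 0.13, adjusted p = 1.04e-05, GC-corrected 1.13). ATAT1, the enzyme that acetylates the tubulin lysine from which KDAC6 removes the group, had 14.7, 13, 14.1 and 14.9 CPM against 5.80, 10.9, 6.16 and 6.40 CPM, and 6.16 ± 0.922 CPM in WT cells. It differed by 1.00 on the log2 scale (SE 0.22, adjusted p = 0.00196, GC-corrected 0.85).

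SMC3 and ARID1A passed the test in opposite directions. SMC3, the cohesin substrate of KDAC8, had 60.6, 60.1, 63.9 and 59.4 CPM against 93.4, 66.2, 94.3 and 91.8 CPM. The lines did not overlap and SMC3 passed the test (log2 fold change -0.47, SE 0.14, adjusted p = 0.00982), but GC-corrected it was 0.04 and it was called in 1 of the 8 fits that leave out a library. Of 17 cohesin genes tested, 2 were higher, ESPL1 (separase) and MAU2 (cohesin loading), and 6 lower, with a median of -0.30 that became 0.0015 under GC correction (2 higher, 3 lower), and under total-count scaling 2 were called each way. RAD21, the kleisin subunit that closes the ring, had 86.0 ± 14.7 against 203 ± 35.2 CPM (-1.20, SE 0.17, adjusted p = 8.08e-05, GC-corrected -0.67), and STAG2 68.9 ± 10.2 against 134 ± 24.5 CPM (-0.92, SE 0.16, adjusted p = 0.000386, GC-corrected -0.54). The others lower were ESCO2, SGOL1, WAPL and SMC3. Among all genes tested 24.3% were higher and 20.9% lower. NIPBL, the loader of cohesin, had 80.4 ± 13 against 101 ± 8.60 CPM and did not pass (-0.30, adjusted p = 0.0845, GC-corrected 0.18). ARID1A, a subunit of the SWI/SNF remodeller, had 143.3 ± 5.55 against 103 ± 14 CPM (0.50, SE 0.13, adjusted p = 0.00565), was called in 2 of the 8 such fits and stood at 0.01 GC-corrected. Of 26 SWI/SNF genes, 7 were higher and 4 (PHF10, PBRM1, SMARCE1 and ARID1B) lower. These counts depended on the setting, with 4 and 7 GC-corrected, 7 and 1 under total-count scaling, and 3 to 10 higher and 2 to 7 lower without any 1 library (3 and 2 without KDAC6H611A replicate 4, 7 lower without KDAC6H611A replicate 2), so no direction is given for the list. BRD9, a bromodomain subunit, had 433, 253, 365 and 491 CPM against 93.2, 124, 79.0 and 91.5 CPM (2.02, SE 0.23, adjusted p = 2.1e-05, GC-corrected 1.46).

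On the side of KDAC6, 5 of 37 tubulin-related genes were higher and 11 lower (GC-corrected, 4 and 14). Among all genes tested 24.3% were higher and 20.9% lower (GC-corrected, 17.9% and 18.7%; under total-count scaling, 28.9% and 10.0%). The median of the tubulin-related genes was -0.13 and turned to 0.11 under total-count scaling (7 higher, 6 lower). Without KDAC8H143A replicate 2, 8 were higher, and without replicate 3 or 4 of that line 3. The higher genes were TBCD, a tubulin folding cofactor, ATAT1, TTLL5, TUBA4A and MAP1S, of which MAP1S turned to -0.21 GC-corrected. MAP1A, a microtubule-associated protein, had 3.25, 3.53, 3.2 and 3.10 CPM against 33.2, 23.4, 38.6 and 31.9 CPM (log2 fold change -3.24, SE 0.18, adjusted p = 1.31e-07), and 8.03 ± 1.01 CPM in WT cells. Of 51 actin cytoskeleton genes, 8 were higher and 14 lower (GC-corrected, 6 and 18). Under total-count scaling 8 were higher and 4 lower and the median of -0.23 became 0.0021, and the lower genes were 23 without KDAC6H611A replicate 2 and 9 without KDAC8H143A replicate 1. EPB41L3, FLNC and MYH10 led the higher genes. TES, a focal adhesion protein, led the lower ones with 6.61 ± 1.65 against 59.0 ± 13.6 CPM (-3.11, SE 0.22, adjusted p = 8.03e-07), and CAPG, which caps actin filaments, had 11.1 ± 1.83 against 56.2 ± 9.45 CPM (-2.30, SE 0.17, adjusted p = 1.05e-06). CTTN, which encodes cortactin, overlapped between the lines at 332 ± 57.3 against 252 ± 19.5 CPM (0.43, adjusted p = 0.0352) and did not pass. HSP90AA1 had 575 ± 55.4 against 800 ± 195 CPM and did not pass either (-0.44, adjusted p = 0.0604). Of 28 HSP90 and chaperone genes, 2 were higher (CDC37, a co-chaperone, and HSF1, the heat-shock factor, which was -0.37 GC-corrected) and 8 lower (GC-corrected, 0 and 6, with 1 higher at an unadjusted p under 0.05; by DESeq2, 2 and 9), and the median of -0.17 turned to 0.06 under total-count scaling (2 higher, 1 lower). Without KDAC8H143A replicate 1, 5 were lower. Of 23 aggresome and autophagy genes, ULK1 was higher and 8 were lower (GC-corrected, 1 and 5; under total-count scaling, 1 and 2). Without KDAC6H611A replicate 2, 13 were lower, 5 without replicate 4 of that line, and 4 without replicate 1 or 3 of either line.

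Matrix proteases and integrins were more often lower than higher in KDAC8H143A, although under total-count scaling 4 proteases were called each way. Among all genes tested 24.3% were higher and 20.9% lower (GC-corrected, 17.9% and 18.7%; under total-count scaling, 28.9% and 10.0%). MMP1, the interstitial collagenase, had 4.09, 4.12, 3.06 and 1.80 CPM in KDAC8H143A and 247, 166, 314 and 240 CPM in KDAC6H611A. With 58.5 ± 5.44 CPM, WT cells lay between the lines, and the log2 fold change was -6.16 (SE 0.28, adjusted p = 2.41e-08). PLAT, the tissue plasminogen activator, had 36.1 ± 4.57 against 222 ± 43.8 CPM (-2.59, SE 0.17, adjusted p = 5.44e-07) and 137 ± 5.47 CPM in WT cells. Of 27 matrix protease genes, 4 were higher and 10 lower (GC-corrected, 2 and 11). The higher ones were SERPINB5, ADAMTS12, MMP9 and ADAM19. MMP9, gelatinase B, had 15.9 ± 4.68 against 5.73 ± 1.86 CPM (1.49, SE 0.26, adjusted p = 0.00043, GC-corrected 0.76). Of 18 integrins, ITGB2 was higher and 6 were lower (GC-corrected, 0 and 7, with 0 higher at an unadjusted p under 0.05; by DESeq2, 1 and 6; under total-count scaling, 2 and 4). ITGA11, a collagen-binding α chain of fibroblasts, had 1.5, 4.12, 2.92 and 3.59 CPM against 23.9, 26.7, 33.9 and 32.5 CPM, with no overlap (-3.21, SE 0.25, adjusted p = 1.92e-06, GC-corrected -3.44). ITGA2, another collagen-binding α chain, had 100 ± 47.4 against 352 ± 82.2 CPM (-1.78, SE 0.29, adjusted p = 0.000261). Of the cadherins and desmosomal genes 7 were higher and 7 lower of 20, and the median of 0.30 turned to -0.23 GC-corrected. Under total-count scaling 7 were higher and 3 lower, and without KDAC6H611A replicate 4, 4 were higher. JUP, plakoglobin, had 1.17 ± 0.424 against 22.7 ± 6.31 CPM (-4.21, SE 0.30, adjusted p = 8.52e-07). Of 27 collagens, 7 were higher and 5 lower, and the median of 0.35 turned to -0.18 GC-corrected (5 higher, 7 lower). The lower ones were COL4A6, COL22A1, COL4A5, COL17A1 and COL12A1. COL5A1, of fibrillar collagen V, had 592, 350, 480 and 626 CPM against 75.4, 112, 60.7 and 87.2 CPM (2.64, SE 0.24, adjusted p = 5.54e-06, GC-corrected 1.79), whereas COL4A5, of basement membrane collagen IV, had 43.1 ± 6.62 against 105 ± 7.23 CPM (-1.25, SE 0.15, adjusted p = 2.91e-05). Of 34 angiogenesis factors, 11 were higher and 9 lower (GC-corrected, 6 and 10; the median of -0.18 turned to 0.08 under total-count scaling), with PDGFB, a growth factor of pericytes and fibroblasts, at 5.95 ± 1.46 against 0.153 ± 0.152 CPM (5.02, SE 0.48, adjusted p = 7.27e-06) and THBS2 at the other end.

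The immediate early genes, HOX genes and clustered protocadherins were more often higher than lower, beside 24.3% of all genes tested. Of 25 immediate early genes, which respond to growth factors within minutes, 14 were higher and 1 lower (GC-corrected, 10 and 4). EGR1 had 50.6, 18.3, 21.9 and 56.0 CPM against 1.32, 1.51, 1.27 and 0.815 CPM (log2 fold change 4.94, SE 0.44, adjusted p = 4.46e-06), and FOSB 10.1 ± 3.36 against 0.469 ± 0.314 CPM (4.34, SE 0.44, adjusted p = 1.17e-05). WT cells had 1.63 and 0.561 CPM of these genes, close to KDAC6H611A. KLF4 was the exception at 3.77 ± 0.792 against 10.3 ± 1.20 CPM (-1.42, SE 0.22, adjusted p = 0.000176). Of 28 HOX genes, 14 were higher and 0 lower by edgeR (GC-corrected, 11 and 0; by DESeq2, 15 and 0), and none was lower at an unadjusted p under 0.05. HOXB13, a posterior homeobox gene, had 84.5, 53.9, 127 and 473 CPM against 3.69, 3.86, 4.98 and 5.47 CPM (5.38, SE 0.65, adjusted p = 3.39e-05). HOXB5 had 33.3 ± 11 against 3.57 ± 0.886 CPM (3.28, SE 0.28, adjusted p = 3.14e-06). Of 26 clustered protocadherins, neuronal recognition molecules whose genes share exons, 18 were higher and 0 lower by edgeR (GC-corrected, 15 and 0; by DESeq2, 19 and 0), with 1 lower at an unadjusted p under 0.05. PCDHGA4 had 12.6, 10.8, 9.25 and 9.63 CPM against 1.71, 0.840, 0.906 and 2.91 CPM (2.75, SE 0.34, adjusted p = 3.64e-05), with counts shared among these overlapping genes left uncertain.

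Other gene families went both ways. Among all genes tested 24.3% were higher and 20.9% lower. The lower ZNF and cancer-testis antigen genes lay near that share. Of 431 zinc finger ZNF genes, 67 were higher and 99 lower, and the median of -0.13 turned to 0.14 under total-count scaling (77 higher, 45 lower). ZNF558 had 5.75 ± 0.145 against 0.469 ± 0.145 CPM (3.66, SE 0.32, adjusted p = 3.64e-06), and ZNF726 0.0859 ± 0.0915 against 6.04 ± 1.64 CPM (-5.94, SE 0.52, adjusted p = 3.97e-06). Of 30 p53 targets, 10 were higher and 9 lower (GC-corrected, 4 and 7). The median of -0.07 turned to 0.17 under total-count scaling (11 higher, 5 lower), and 5 were higher without replicate 1 or 3 of either line or KDAC8H143A replicate 4, and 6 without KDAC6H611A replicate 2. Of 30 cancer-testis antigen genes, 4 were higher, TEX14 (6.81 ± 1.23 against 0.270 ± 0.203 CPM), GAGE2A, GAGE10 and PRAME, and 6 lower (3 and 12 GC-corrected; the median of -0.11 turned to 0.17 under total-count scaling, with 4 and 2; 12 lower without KDAC6H611A replicate 2 and 2 higher without its replicate 1), led by PAGE2 and MAGEC2 (1.68 ± 0.629 against 37.6 ± 10.6 CPM, -4.43, SE 0.29, adjusted p = 5.45e-07). Of 32 interferon-stimulated genes, the regulators IRF7, IRF1 and IRF9 were higher and 12 were lower (GC-corrected, 2 and 11). Under total-count scaling 4 were higher and 5 lower, and without replicate 1 of either line 7 were lower. IRF7 had 38.6 ± 18.3 against 8.62 ± 4.38 CPM (2.23, SE 0.42, adjusted p = 0.000739, GC-corrected 0.79), and SAMD9L, an antiviral gene, 2.5 ± 0.647 against 13.5 ± 0.563 CPM (-2.37, SE 0.22, adjusted p = 5.97e-06).

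**Figure D5:**
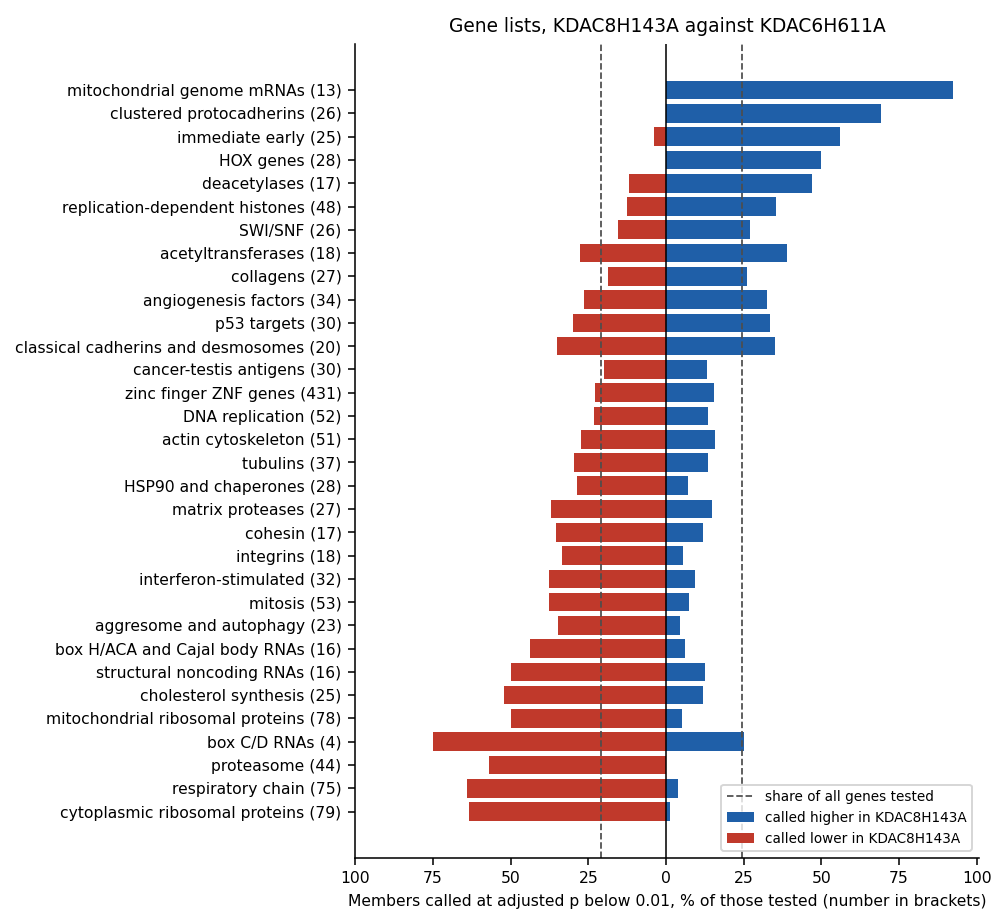
Share of the tested members of each of 32 gene lists (number tested in brackets) called higher in KDAC8H143A (blue, to the right) or lower (red, to the left), in percent of those tested; the dashed lines are the shares of all genes tested, 24.3% and 20.9%. Mitochondrial genome mRNAs, protocadherins and HOX genes have no member called lower, and the proteasome none called higher.

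Genes of the ribosome, the proteasome and the nuclear part of the respiratory chain were more often lower than higher in KDAC8H143A. Of all genes tested, 20.9% were lower (18.7% GC-corrected, 10.0% under total-count scaling). Among the 79 ribosomal proteins of the cytoplasm, 50 were lower and 1, RPS16, higher (GC-corrected, 48 and 1; 29 lower under total-count scaling), with a median of -0.88. RPS27 had 26.6, 34.1, 26.3 and 20.2 CPM against 164, 106, 252 and 180 CPM (log2 fold change -2.67, SE 0.24, adjusted p = 4.79e-06). RPS12 had 61.4 ± 9.51 against 351 ± 105 CPM (-2.48, SE 0.22, adjusted p = 4.02e-06), and for both genes KDAC6H611A was near WT. Ribosomal protein genes have many processed copies, and 544 processed pseudogenes tested had a median of 1.09 with 222 higher and 26 lower, so how reads were shared among the copies is uncertain. Of 78 mitochondrial ribosomal protein genes, 39 were lower (GC-corrected, 30; 16 under total-count scaling) and MRPL23, MRPS5, MRPL12 and MRPS2 higher, of which MRPL12 was -0.58 and MRPS2 -0.24 GC-corrected (between 2 and 6 higher without any 1 library). Of 44 proteasome genes, 25 were lower and 0 higher by edgeR (GC-corrected, 16 and 0; by DESeq2, 29 and 0; under total-count scaling, 5 lower; without KDAC8H143A replicate 1, 16 lower), and none was higher at an unadjusted p under 0.05. The proteasome count under total-count scaling lay near the share of all genes. PSMB1, a subunit of the core particle, had 29.1 ± 5.33 against 100 ± 23.1 CPM (-1.75, SE 0.19, adjusted p = 1.54e-05). Of 75 nuclear genes of the respiratory chain, 48 were lower (GC-corrected, 46; 30 under total-count scaling) and NDUFA10, NDUFS7 and ATP5D higher, of which NDUFS7 was -0.06 and ATP5D -0.29 GC-corrected (between 1 and 3 higher without any 1 library). COX7A2 had 5.48 ± 2.17 against 34.6 ± 12.4 CPM (-2.61, SE 0.30, adjusted p = 2.63e-05).

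The respiratory chain genes of the mitochondrial genome ran against the nuclear ones. Of 13, 12 were higher and 0 lower by edgeR (GC-corrected, 12 and 0; by DESeq2, 13 and 0), none was lower at an unadjusted p under 0.05, and the median was 3.27. MT-ND2, a subunit of complex I, had 11294, 8202, 4460 and 9071 CPM against 311, 587, 231 and 144 CPM (log2 fold change 4.72, SE 0.48, adjusted p = 1.04e-05), and MT-ND6 2466 ± 666 against 62.6 ± 48.9 CPM (5.33, SE 0.59, adjusted p = 2.06e-05). WT cells had 329 ± 41.1 and 58.2 ± 2.78 CPM, near KDAC6H611A. These mRNAs made up 6.43% to 14.8% of the counts in KDAC8H143A and 0.680% to 1.70% in KDAC6H611A. The share of mitochondrial rRNA, which rRNA depletion is meant to remove, went the opposite way between the lines, as given above, and its part in these values was not tested.

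Cholesterol synthesis genes were also lower more often than higher, whereas the balance for genes of the cell cycle depended on the scaling. Of 25 genes of cholesterol synthesis, 13 were lower and 3 higher (GC-corrected, 11 and 2; under total-count scaling, 7 and 4). INSIG1, which holds the sterol sensor in the endoplasmic reticulum, had 10.0, 14.2, 14.2 and 7.92 CPM against 118, 79.3, 135 and 108 CPM (log2 fold change -3.21, SE 0.22, adjusted p = 6.12e-07). The higher ones were TM7SF2, MVD and SREBF2. Of 53 mitosis genes, 20 were lower and INCENP, PLK1, AURKB and TACC3 higher, with a median of -0.36 that became -0.01 under GC correction (7 lower, 6 higher), and under total-count scaling 4 were lower and 5 higher. Without KDAC8H143A replicate 2, 7 were higher. TTK, a kinase of the spindle checkpoint, had 10.0 ± 2.01 against 37.6 ± 7.19 CPM (-1.87, SE 0.18, adjusted p = 8.81e-06), whereas INCENP, of the chromosomal passenger complex, had 133 ± 33.5 against 67.8 ± 7.15 CPM (1.00, SE 0.18, adjusted p = 0.000555). Of 52 DNA replication genes, 12 were lower and 7 higher, beside 20.9% and 24.3% of all genes (GC-corrected, 5 and 4; under total-count scaling, 3 and 6; 19 lower without KDAC6H611A replicate 2 and 11 higher without KDAC8H143A replicate 2). Of 48 replication-dependent histone genes, 17 were higher and 6 lower, and the median of 0.19 turned to -0.45 GC-corrected (3 higher, 10 lower). Under total-count scaling 18 were higher and 1 lower, and 11 were lower without KDAC6H611A replicate 2 and 10 without KDAC8H143A replicate 2, so no direction is given for them.

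Several small structural RNAs were far lower in KDAC8H143A. SNORD3A, the U3 RNA of pre-rRNA processing, had 491, 221, 346 and 506 CPM against 9337, 15217, 12234 and 9032 CPM (log2 fold change -4.84, SE 0.36, adjusted p = 1.33e-06). RMRP, the RNA of the RNase MRP complex, had 93.7 ± 15.7 against 2979 ± 644 CPM (-4.96, SE 0.25, adjusted p = 6.03e-08). SCARNA10, a small Cajal body RNA, had 0 counts in all KDAC8H143A libraries and 19.5 ± 6.68 CPM in KDAC6H611A (at least 77.8-fold lower, adjusted p = 1.84e-06). It entered the test only through KDAC6H611A, so its call is no support for it. WT cells had 11107 ± 2413, 3349 ± 344 and 13.9 ± 1.35 CPM of the 3 RNAs, near KDAC6H611A. Of 16 structural RNAs tested, 8 were lower and 2 higher, with a median of -0.82. A fit without mitochondrial rRNA and the small RNA types gave 0.52. That fit takes members of this list out, so its median covers only those left and is no change of direction. Under total-count scaling 5 were lower and 4 higher, and without any 1 library 1 to 3 were higher. Of 16 box H/ACA and Cajal body RNAs, 7 were lower and 1 higher (under total-count scaling, 7 and 3), and of 4 box C/D RNAs 3 were lower and 1 higher. The higher ones were TERC and MALAT1, SCARNA2, and SNORD17, of which TERC was -0.09 and SCARNA2 -0.75 GC-corrected. Recovery of RNAs this short depends on how libraries are made, and its part in these values was not tested.

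A few of the genes high in KDAC8H143A differed widely between its libraries. Of 10414 protein-coding genes with at least 5 CPM in KDAC8H143A, 10 were called and had at least 5 times as many CPM in replicate 4 as in replicate 2, all of them higher, while the median ratio over the 10414 was 0.986. They were chosen after their values were seen and for this ratio, so it is a description. Replicates 2 and 4 were also the KDAC8H143A libraries with the lowest and highest difference between GC groups (0.03 and 1.07), whose part in these values was not tested. They included GABRA2, CD300E, HOXB13, PKNOX2 and RNF225. MECOM, a zinc finger gene of haematopoietic stem cells, had 99.2, 58.8, 148 and 486 CPM in KDAC8H143A replicates 1 to 4 and 8.77 ± 0.386 CPM in KDAC6H611A. DONSON, a replication fork gene, had 214, 81.3, 159 and 455 CPM against 19.4 ± 2.33 CPM. MIR3648-1, annotated as a microRNA gene, had 260, 66.7, 251 and 1014 CPM in the same libraries and at most 0.168 CPM in KDAC6H611A. Its GC fraction was 0.839, and its log2 fold change of 13.28 was 7.97 GC-corrected. Which RNA its reads came from was not tested. For MECOM, DONSON and MIR3648-1 the lines did not overlap. WT cells had below 1 CPM of 6 of the 10.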

How the data were processed

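RNA of untreated HT1080 KDAC8H143A and KDAC6H611A cells was rRNA-depleted and sequenced in paired ends. Per the labels and the methods of the study, the authors trimmed reads with Trimmomatic 0.39, aligned them to GRCh38 with Bowtie2 2.4.5 and estimated counts with RSEM 1.3.3. The deposited table holds RSEM expected counts per gene and library, not scaled for depth or length. The annotation release is not given in the sources used here. All of its columns were mapped to samples by their titles (0 left unused).

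Expected counts were rounded and tested in edgeR 4.0.16 (R 4.3.3) with the quasi-likelihood test (glmQLFit, glmQLFTest), TMM and filterByExpr by group, on the 8 libraries alone, and adjusted p-values (Benjamini-Hochberg) below 0.01 were called. The SE is the size of the log2 fold change over the square root of F. CPM are on TMM sizes over all 22 libraries, so that WT levels share the scale. "At least" folds set the mean of one line against 3 counts in the library of the other where they weigh most, and only where that line had 0 counts. Ratios of counts carry exact 95% intervals for counting error only. Positions, gene types, lengths and GC content came from GENCODE 44, which matched 56558 of 60675 genes by identifier, and the correction for GC content and length used mgcv 1.9.3. Within lines, pairs of libraries differed by 10.9 to 268 times the counting variance, more than repeated sequencing of the same library would give. This cannot tell separate cultures from separate preparations of the same RNA.

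The alternatives are those of the closing section. DESeq2 was 1.42.0, and summaries and figures used pandas 2.3.3, scipy 1.17.1, python 3.11.15, matplotlib 3.10.9 and numpy 2.4.6. On simulated data for this comparison (16218 genes, 200 changed) edgeR recovered 40% of the 2-fold and 87% of the 4-fold changes, with 2.31% false calls. With a simulated GC bias 93.6% of the calls were false without and 2.13% with the correction. That bias was the same in every KDAC8H143A library and the changed genes were drawn without regard to GC content. Removal of it by a smooth offset was therefore built in. The real libraries differed in their GC trend and many more genes were called, so these rates do not carry over to them.

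The comparison, the gene lists and the genes named were chosen with earlier results of these data known. The genes named were HDAC6, HDAC8, SMC3, NIPBL, ARID1A, ATAT1, CTTN and HSP90AA1. Added to these were the 12 largest changes in each direction (protein-coding, at least 5 CPM, no overlap, called in all 8 fits without 1 library), the 8 most expressed genes in each direction with at most 3 counts in the other line, and up to 3 called members of each list in each direction, or all of them where 5 or fewer were called. Genes of the Y chromosome were left out of the names. The number of libraries limits the precision. The inhibitor and KDAC6H216A libraries entered only the CPM scale and one alternative.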

Additional observations from a re-analysis of the deposited data

Results flagged for a closer look

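A value was singled out where the gap between the highest or lowest of the 4 libraries of a line and the nearest other one took a larger share of the range of the line than Dixon's 95% limit for 4 values allows. Of 52 groups of libraries examined 5 passed, where chance alone gives about 1 in 20. The lowest SMC3 level in KDAC6H611A, 66.2 CPM, was that of replicate 2, and it was the value nearest to the KDAC8H143A libraries. The highest ATAT1 level in KDAC6H611A, 10.9 CPM, was also that of replicate 2. SERPINB5 had 11.7 CPM in KDAC8H143A replicate 2, above the other libraries of that line. PKNOX2 had 21.1 CPM in KDAC8H143A replicate 4. The total count of KDAC8H143A replicate 2 was 17170473, above the other totals of that line.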

How the results depend on the processing

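Without any 1 library edgeR called between 5899 (without KDAC6H611A replicate 1) and 8351 (without KDAC8H143A replicate 2) genes, 3174 to 4468 of them higher and 2672 to 4169 lower, against 7519, 4046 and 3473 with all 8. DESeq2 called 8329 genes, upper-quartile scaling 7440, no filter 8735 of 33385, at least 10 counts in every library 6143, one fit of all 22 libraries 9757, counts thinned to the smallest total 7023, protein-coding genes alone 6436, a level of 0.05 9862, and, chosen after seeing the data, KDAC6H611A replicates 2 and 4 left out together 6857. Total-count scaling left 1666 genes lower and 4812 higher. A log2 fold change of at least 1 in either direction left 4908 genes, 2068 of them lower. With the replicate block edgeR called 6572 genes, 3567 higher and 3005 lower, and with the replicate block and the GC correction 4744, of which 2333 were higher. Deviations of same-numbered libraries correlated at -0.04, -0.10, 0.01 and 0.22, and only the replicate 4 libraries correlated best with their own number. These values cannot tell whether same-numbered libraries shared a culture or a batch.

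The GC correction turned the direction of 11 of the called genes followed under the naming rule (and of HDAC6 and NIPBL, which were not called), with the following values under it and, in brackets, under the replicate block with it: SMC3 0.036 (0.048), MAU2 -0.061 (-0.065), MAP1S -0.21 (-0.19), HSF1 -0.37 (-0.37), MRPL12 -0.58 (-0.56), MRPS2 -0.24 (-0.24), NDUFS7 -0.056 (-0.048), ATP5D -0.29 (-0.29), POLD1 -0.0026 (-0.00061), TERC -0.085 (-0.088) and SCARNA2 -0.75 (-0.77). It also turned the medians of cohesin, 0.0015 (0.010), cadherins, -0.23 (-0.23), collagens, -0.18 (-0.18), and histones, -0.45 (-0.47). Of the genes called in both fits, 29 had opposite signs. Among lists with a median of at least 0.1 in size, total-count scaling turned the medians of tubulins to 0.11, actin cytoskeleton to 0.0021, HSP90 and chaperones to 0.063, DNA replication to 0.046, angiogenesis factors to 0.084, cancer-testis antigens to 0.17 and ZNF genes to 0.14. Below that size it also turned those of SWI/SNF, from -0.03 to 0.24, and p53 targets, from -0.07 to 0.17. The median of the neural markers was -0.93 with at least 10 counts in every library. That of the structural RNAs was 0.52 with small RNA removed, which takes members of this list out, so it covers only those left. The cause of the other turns was not tested. Where 1 or 2 members of a list (cell type markers aside) were called in a direction, leaving out 1 library moved that count by at most 1. Of the genes followed, which include all called list members of the naming rule, 65 lost their call under some alternative.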

Other observations

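Of 2093 long noncoding RNA genes tested, 488 were higher and 201 lower, with a median log2 fold change of 0.29 (0.24 GC-corrected). Among all genes tested 24.3% were higher and 20.9% lower. The share of long noncoding RNA genes that were higher lay near that of all genes, and the share that were lower lay below it. Of 104 unprocessed pseudogenes, 43 were higher and 10 lower, with a median of 1.12 (0.77 GC-corrected). The median over protein-coding genes was -0.05.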
